A study of Mus musculus with 11 samples.

Results

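The genes described here encode the receptors for neurotrophins and for ligands of the GDNF family, together with the neurotrophin BDNF. They are Bdnf, Ntrk2, Ngfr, Ntrk3, Ret, Gfra1, Gfra2 and Gfra3, chosen by symbol, and they are 8 of the 36670 genes in the table of dorsal root ganglion (DRG) RNA-Seq. A DRG is the ganglion beside the spinal cord in which sensory neurons sit, each wrapped by satellite glial cells (SGCs). The study asked what GPR37L1, an orphan receptor of SGCs, does in the DRG during neuropathic pain. Mice were wild type (WT) or Gpr37L1 KO and were either controls or had received paclitaxel (PTX), a chemotherapy agent that causes neuropathic pain, 4 weeks before collection. There were 3 libraries each of WT control, WT PTX and KO control and 2 of KO PTX, 11 in all, of which 7 were labelled male and 4 female. The KO allele came from the strain B6;129S5-Gpr37l1tm1Lex/Mmucd, and the study kept the line and littermates on C57BL/6. The study used adult mice of both sexes in its behavioral and biochemical work and describes sequenced DRGs of naive mice. The age of the mice behind each library, the level of the ganglia, whether every control was naive or received a vehicle, and whether a library pooled mice are not given in the sources used here, so p-values measure the spread between these libraries.

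Neurotrophins act on sensory neurons through tyrosine kinase receptors of the Trk family. BDNF binds TrkB, encoded by Ntrk2, and neurotrophin 3 binds TrkC, encoded by Ntrk3. All neurotrophins also bind p75NTR, the product of Ngfr. Ligands of the GDNF family first bind a co-receptor of the GFRα family, and the pair then activates the tyrosine kinase RET. GDNF prefers GFRα1, neurturin GFRα2 and artemin GFRα3. In adult DRGs these receptors mark classes of sensory neuron: TrkC is typical of proprioceptors, TrkB of Aδ low-threshold mechanoreceptors, RET with GFRα2 of non-peptidergic nociceptors and C low-threshold mechanoreceptors, and GFRα3 of peptidergic nociceptors. Short forms of TrkB and TrkC and p75NTR are also made by glial cells.

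Libraries held 52735648 to 80348732 estimated counts, and every member passed the filter of a mean of 0.5 FPKM (fragments per kilobase of gene length, scaled to the size of the library) that left 15087 genes to test. Gpr37l1, the targeted gene, stood at 14.56 to 35.7 FPKM in WT and 0.21 to 1.15 FPKM in KO libraries, and the 2 KO PTX libraries were the highest of the KO. Markers of sensory neurons (summed level of 10 genes, 3337 to 4310 FPKM) and SGCs (8 genes, 1056 to 1487 FPKM) were high in every library. Some libraries stood apart. WT control 2 had the highest summed level of 5 peptidergic nociceptor markers, 1268 FPKM against 730.1 to 1019 FPKM elsewhere. KO PTX 3 had the highest summed level of 8 markers of spinal cord and central glia, 18.67 FPKM against 1.72 to 6.57 FPKM elsewhere. The summed level of 7 skeletal muscle markers ranged from 3.07 to 520.7 FPKM. The summed level of 7 macrophage markers was 20.81 to 25.74 FPKM in WT PTX libraries and 28.62 to 38.75 FPKM in WT controls. In KO the ranges overlapped, at 23.72 to 28.11 FPKM after PTX and 26.29 to 29.93 FPKM in controls. In whole ganglia, fewer cells of a type and less RNA per cell cannot be told apart.

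The promoters of Ntrk2, Ngfr and Bdnf are shown because the results turn on these genes: Ntrk2 was the only member whose PTX and control libraries did not overlap over both genotypes, as 0.742% of genes tested did not, Ngfr was the highest member and the only one called by any tool, and Bdnf was the most variable. The windows end just before the transcript start. They come from RefSeq for GRCm38.p6, in which 4 of the 8 members (these and Gfra1) had an entry, and they read 5′ to 3′ on the gene's own strand. Capitals mark matches on either strand to a GC box (GGGCGG), a RUNX core (TGTGGT) or an AP-1 motif (TGANTCA). The Ntrk2 window is chr13:58806319-58806568 on the plus strand, the Ngfr window chr11:95587736-95587948 on the minus strand and the Bdnf window chr2:109676782-109677031 on the plus strand, before the second of 7 Bdnf starts, the one with most of these motifs.
Ntrk2: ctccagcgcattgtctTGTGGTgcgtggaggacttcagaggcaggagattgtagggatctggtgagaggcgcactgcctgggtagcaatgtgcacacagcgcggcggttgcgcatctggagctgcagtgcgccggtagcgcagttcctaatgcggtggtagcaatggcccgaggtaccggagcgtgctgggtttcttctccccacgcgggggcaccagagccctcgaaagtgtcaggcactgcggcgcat
Ngfr: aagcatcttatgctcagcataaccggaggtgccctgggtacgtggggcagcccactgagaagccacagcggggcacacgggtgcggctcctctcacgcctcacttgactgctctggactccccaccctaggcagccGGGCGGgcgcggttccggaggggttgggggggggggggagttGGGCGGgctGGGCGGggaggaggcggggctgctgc
Bdnf: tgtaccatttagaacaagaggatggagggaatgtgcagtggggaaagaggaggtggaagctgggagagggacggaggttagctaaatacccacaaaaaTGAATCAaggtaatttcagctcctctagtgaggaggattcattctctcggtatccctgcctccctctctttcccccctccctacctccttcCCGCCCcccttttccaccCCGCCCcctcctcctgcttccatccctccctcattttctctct
The Ngfr sequence leaves out the 37 bases nearest the RefSeq start, which GENCODE places in the first exon.

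The full Ngfr window of 250 bases had a GC content of 70.4%, higher than in 91.2% of 32851 windows of the same length, and held 4 GC boxes, 3 of them in the printed bases. A GC box stood in 32.7% of all windows. The Ntrk2 window had a GC content of 62.8% and 19 CpG, against medians of 52.4% and 6, and held a single RUNX core, a motif found in 14.1% of windows. Bdnf is transcribed from a row of alternative first exons, and its 7 windows differed in GC content from 39.2% to 59.6%. The one printed held 2 GC boxes and the only AP-1 match among the 10 windows of the members, against 6.75% of all windows. The Gfra1 window held none of these 3 motifs. The cyclic AMP response element TGACGTCA, in 1.55% of all windows, was in none of the 10, and the E-box CANNTG, in 66.2% of all windows, was in 9 of the 10. A match is a description of the letters and not of binding.

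In mm10 coordinates Bdnf lies at chr2:109674700-109727007, Ntrk2 at chr13:58806569-59133970, Ngfr at chr11:95568818-95587735, Ntrk3 at chr7:78175959-78738012, Ret at chr6:118151745-118197718, Gfra1 at chr19:58235604-58455398 and Gfra2 at chr14:70890120-70979838. Gfra3 lies at chr18:34689898-34720387. Ngfr, Ret, Gfra2 and Gfra3 overlap no other annotated gene. Ntrk3 overlaps the antisense gene Gm9885, which had a mean of 0.984 FPKM, and Bdnf overlaps the antisense gene Gm45346 at 0.0646 FPKM. The libraries were stranded, but whether the counting used the strand is not given in the sources used here. FPKM is given per gene, so full-length and truncated TrkB or TrkC were not separated.

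In levels per length, Ngfr and Ret were far above the other members (205.6 ± 29.9 and 130.7 ± 7.49 FPKM, mean ± SD, n = 11 libraries). Gfra2 followed at 59.0 ± 6.84 FPKM, then Gfra3 at 28.5 ± 5.60 FPKM and Gfra1 at 26.8 ± 3.68 FPKM. Ntrk2 stood at 9.26 ± 0.546 FPKM, Ntrk3 at 7.04 ± 0.786 FPKM and Bdnf, the only ligand among the members, at 5.35 ± 2.89 FPKM. The mean level of Ngfr exceeded that of 99.7% of gene symbols in the table, that of Ret 99.3% and that of Bdnf 80.7%. Every library placed Ngfr above Ret, Ret above Gfra2, Gfra2 above Gfra3, Gfra1 above Ntrk2, and Ntrk2 above Ntrk3. Gfra3 and Gfra1 did not differ beyond their spread: Gfra3 was the higher in 8 of 11 libraries, with a log2 ratio within libraries of 0.08 ± 0.19 (SD). Ntrk3 was above Bdnf in 8 of 11 libraries, with a log2 ratio of 0.51 ± 0.70.

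The order rests on the length by which the authors divided. Counts and FPKM together returned a gene length 1.08 times the union of all annotated exons for each of the 8 members. For Ntrk3 that union is 30170 bases against 19703 for its longest transcript, and for Ntrk2 it is 19292 against 8744. Scaled to the longest transcript instead, Ntrk2 would stand at 20.4 FPKM, Ntrk3 at 10.8, Bdnf at 7.79, Ret at 162.0 and Gfra1 at 31.6 FPKM, with Ngfr and Gfra3 as before and Gfra2 at 60.2 FPKM. This setting, chosen after seeing the data, put Gfra1 above Gfra3 and left the other neighbours in the same order of mean log2 ratio. Comparisons of 1 gene between libraries do not depend on it.

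Ret and its co-receptors were also set against each other within each library as log2 ratios of FPKM. By this measure Ret stood 1.15 ± 0.23 above Gfra2, 2.22 ± 0.24 above Gfra3 and 2.29 ± 0.14 above Gfra1 (SD, n = 11). WT control 2 had the smallest distance from Ret to Gfra1 (1.99) and to Gfra3 (1.88) and the largest to Gfra2 (1.75). Gfra2 lay above Gfra1 by only 0.25 there and by 1.47 in KO control 3, the library at the other end. The log2 ratio of Ngfr to Ntrk2, the receptors that share BDNF, was lowest in WT PTX 3 (4.01) and highest in WT control 2 (5.03).

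**Figure D1:**
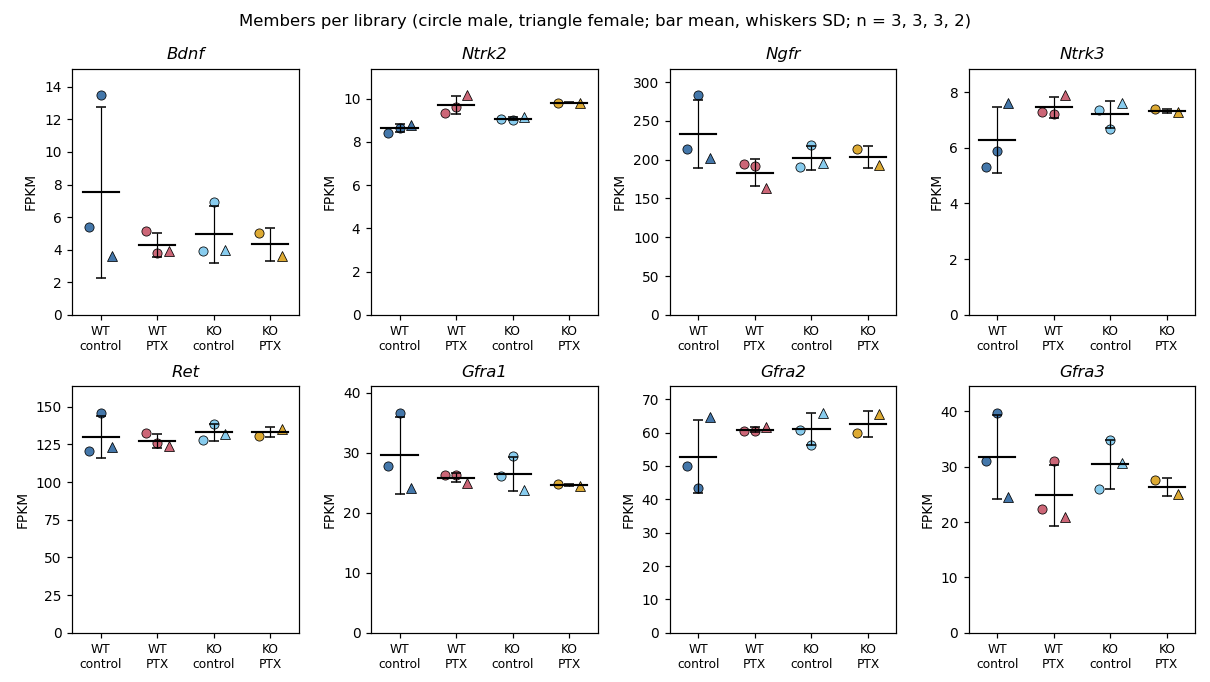
FPKM (vertical axis, linear from 0) of each member in each library, by group; circles are male and triangles female libraries, bars are group means and whiskers SD (n = 3, 3, 3 and 2). WT control 2 is the highest library for Bdnf (13.5 FPKM), Ngfr (283.43 FPKM), Ret, Gfra1 and Gfra3 and the lowest for Gfra2 (43.54 FPKM), while for Ntrk2 all 5 PTX libraries lie above all 6 controls.

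Bdnf encodes the ligand of TrkB. Its level was 5.42, 13.5 and 3.64 FPKM in WT controls 1 to 3, 5.12, 3.81 and 3.89 FPKM in WT PTX 1 to 3, 3.89, 6.93 and 3.98 FPKM in KO controls 1 to 3, and 5.05 and 3.61 FPKM in KO PTX 2 and 3. WT control 2 stood apart and KO control 2 was the next highest, and the groups overlapped in all comparisons. The coefficient of variation over libraries was 54.0%, above that of 97.1% of the genes tested, and 23.8% without WT control 2. The 6791 estimated counts of Bdnf in that library leave little counting error. PTX in WT gave a log2 fold change of -0.72 (95% interval -1.52 to 0.07), with an adjusted p of 0.402 in edgeR's quasi-likelihood test, and -0.13 without WT control 2.

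Ntrk2 encodes TrkB. Its level was 8.43, 8.66 and 8.79 FPKM in WT controls, 9.33, 9.63 and 10.17 FPKM in WT PTX, 9.06, 9.0 and 9.15 FPKM in KO controls, and 9.82 and 9.81 FPKM in KO PTX. All 5 PTX libraries were above all 6 controls, in WT and in KO alike. The means were 9.75 and 8.85 FPKM, with a log2 fold change averaged over genotypes of 0.14 (SE 0.042), or 9.92% (95% interval 2.98% to 17.3%). The exact two-sided permutation test over the 11 libraries gave p = 0.00217, the smallest p that 462 relabellings allow, and edgeR gave an unadjusted p of 0.00894 and an adjusted p of 0.443. Relabelling took no account of genotype or sex, and the test rests on the same FPKM as the lack of overlap. Thus Ntrk2 did not pass the threshold among all genes. The coefficient of variation of Ntrk2 was 5.89%, above that of 9.52% of genes tested.

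Macrophage markers ran against Ntrk2 across libraries. The mean log2 level of 7 macrophage markers had r = -0.87 with Ntrk2 over 11 libraries, which share group, sex and depth, and -0.87 without WT control 2. Skeletal muscle markers had r = -0.54 with Ntrk2, or -0.83 without WT control 2. The part of either cell type in the difference was not tested. The summed central glia markers were 6.57 and 18.67 FPKM in the KO PTX libraries, and their part was not tested. Without KO control 2, KO PTX 3 or any other single library, the log2 fold change averaged over genotypes was 0.11 to 0.15.

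Ngfr encodes p75NTR, which binds every neurotrophin. Its level was 213.45, 283.43 and 201.71 FPKM in WT controls, 194.97, 191.55 and 163.49 FPKM in WT PTX, 190.41, 219.08 and 196.22 FPKM in KO controls, and 213.54 and 193.76 FPKM in KO PTX. All 3 WT PTX libraries were below all 3 WT controls, while in KO the groups overlapped. In WT 14.2% of all genes tested had groups that did not overlap. The log2 fold change in WT was -0.35 (SE 0.103), or -21.3% (95% interval -32.9% to -7.75%), with an unadjusted p of 0.00723 and an adjusted p of 0.264 in edgeR. DESeq2, which called 2.05% of genes in this comparison, gave a log2 fold change of -0.35 with an adjusted p of 0.0442, the only call on a member by any tool or setting tried. Leaving out WT control 2 gave a log2 fold change of -0.21, and edgeR's adjusted p was 0.296. Macrophage markers moved with Ngfr. Their mean log2 level had r = 0.81 with Ngfr over 11 libraries and 0.71 without WT control 2, and for PTX in WT 6 of the 7 had an unadjusted p under 0.05 in edgeR, all lower, while DESeq2 called 3 (C1qb, Csf1r and Mrc1). Peptidergic nociceptor markers had r = 0.89 with Ngfr, or 0.73 without WT control 2. Skeletal muscle markers had r = 0.06 with Ngfr, or 0.76 without that library. The part of these cell types in the difference was not tested. In KO the log2 fold change of Ngfr was 0.04 (95% interval -0.22 to 0.30), and the difference between genotypes was 0.39 (SE 0.155) with an adjusted p of 0.724, so a difference was not shown.

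Ntrk3 encodes TrkC, the receptor of neurotrophin 3. Its level was 5.32, 5.88 and 7.60 FPKM in WT controls, 7.27, 7.21 and 7.90 FPKM in WT PTX, 7.36, 6.66 and 7.60 FPKM in KO controls, and 7.38 and 7.28 FPKM in KO PTX. The male WT controls 1 and 2 were the lowest of all libraries, and the female WT control 3 lay among the other groups. The log2 fold change of PTX in WT was 0.26 (SE 0.087), with an unadjusted p of 0.0137 and an adjusted p of 0.294 in edgeR. In KO it was -0.0022 (95% interval -0.22 to 0.21). Macrophage markers ran against Ntrk3 as well (r = -0.86, and -0.81 without WT control 2).

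Ret encodes the shared signalling receptor of the GDNF family. Its level was 120.55 to 145.99 FPKM in WT controls (median 123.42), 123.85 to 132.51 FPKM in WT PTX, 128.06 to 138.91 FPKM in KO controls, and 130.71 and 135.34 FPKM in KO PTX. The groups overlapped in all comparisons, and WT control 2 was again the highest library. Ret was the steadiest member, with a coefficient of variation of 5.73% against a median of 11.3% over genes tested. The log2 fold change of PTX was -0.03 in WT (95% interval -0.21 to 0.15) and 0.01 in KO (95% interval -0.19 to 0.21).

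Gfra1 encodes the co-receptor preferred by GDNF. Its level was 27.85, 36.66 and 24.14 FPKM in WT controls, 26.32, 26.25 and 25.02 FPKM in WT PTX, 26.11, 29.45 and 23.83 FPKM in KO controls, and 24.74 and 24.45 FPKM in KO PTX. WT control 2 stood apart, and both KO PTX libraries were below all WT PTX libraries, with means of 24.6 and 25.9 FPKM. Of all genes tested, 20.2% did not overlap in that comparison of 2 with 3 libraries. The log2 fold change of KO against WT after PTX was -0.04 (95% interval -0.33 to 0.26).

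Gfra2 encodes the co-receptor preferred by neurturin. Its level was 49.92, 43.54 and 64.79 FPKM in WT controls, 60.39, 60.60 and 61.76 FPKM in WT PTX, 60.65, 56.36 and 65.93 FPKM in KO controls, and 59.80 and 65.46 FPKM in KO PTX. The male WT controls were the lowest libraries, and the 4 female libraries (61.76 to 65.93 FPKM) were above all 7 male ones (43.54 to 60.65 FPKM), a separation by sex that 1.5% of all genes tested shared. The log2 fold change of PTX in WT was 0.22 (SE 0.090, adjusted p = 0.354 in edgeR), and 0.12 without WT control 2.

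Gfra3 encodes the co-receptor preferred by artemin. Its level was 31.10, 39.74 and 24.59 FPKM in WT controls, 22.43, 31.11 and 20.89 FPKM in WT PTX, 25.90, 34.80 and 30.62 FPKM in KO controls, and 27.52 and 25.13 FPKM in KO PTX. WT control 2 was the highest and WT PTX 3 the lowest library, and the groups overlapped in all comparisons. The log2 fold change of PTX in WT was -0.36 (95% interval -0.73 to 0.01, adjusted p = 0.384 in edgeR), and -0.21 without WT control 2. In KO it was -0.17 (95% interval -0.59 to 0.25).

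**Figure D2:**
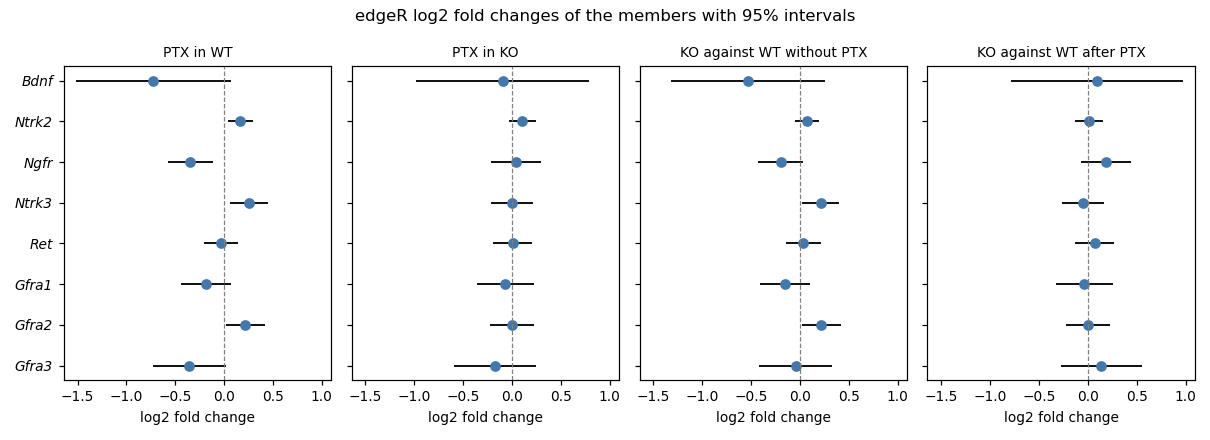
Log2 fold changes (horizontal axis) of the 8 members from edgeR, with points for estimates and lines for 95% intervals, in the 4 comparisons between groups. The intervals of Ntrk2, Ntrk3 and Gfra2 lie above 0 and that of Ngfr below 0 for PTX in WT before adjustment, and no member had an adjusted p under 0.05 in any of the 4.

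Read together, PTX in WT gave 4 of 8 members with an unadjusted p under 0.05: Ntrk2, Ntrk3 and Gfra2 higher and Ngfr lower. Of all genes tested, 13.5% had such a p in this comparison, 0.00663% passed the adjusted threshold in edgeR and 2.05% in DESeq2, and no member was among edgeR's calls. In 2 members, Ntrk2 and Ngfr, the FPKM of the groups did not overlap, as in 14.2% of genes. The exact two-sided permutation test of 3 libraries against 3 cannot go below 0.1, the value both genes gave. When WT control 2 was left out, the members with an unadjusted p under 0.05 were Ngfr, Ntrk2 and Ntrk3. In the male libraries alone, which keep WT control 2, they were Bdnf, Ngfr, Ntrk3 and Gfra2, and the log2 fold change of Ntrk2 was 0.13 there. The log2 fold change of Bdnf was -1.10 in males and -0.13 without WT control 2, so the male fit is no check on that library. The share of all genes with such a p is not given here for either refit.

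PTX in KO gave no member with an unadjusted p under 0.05, against 4.32% of genes tested, and none with an adjusted p under 0.05 in edgeR (0.00663% of genes) or DESeq2 (0.192%). Ntrk2 was the only member whose groups did not overlap, as in 21.6% of genes. Its log2 fold change was 0.11 (95% interval -0.03 to 0.25). Averaged over genotypes, PTX gave only Ntrk2 an unadjusted p under 0.05, against 9.36% of genes, and no member passed in edgeR (0.0133%) or DESeq2 (0.829%). For the difference of the PTX effect between genotypes, Ngfr alone had an unadjusted p under 0.05 (0.0314, against 6.3% of genes), and no member passed in edgeR (0.00663%) or DESeq2 (0.0795%). This p was 0.0614 without WT control 2. The comparisons share libraries, so they are not independent of each other.

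KO against WT without PTX gave Gfra2 and Ntrk3 an unadjusted p under 0.05, against 7.54% of genes. The log2 fold changes were 0.22 (SE 0.090) and 0.21 (SE 0.087), with an adjusted p of 0.657 for each in edgeR. They were 0.12 and 0.20 without WT control 2, and no member had an unadjusted p under 0.05 then. The share of all genes in that refit is not given here. Ntrk3 was 0.14 without WT control 1 and 0.33 without WT control 3, and Gfra2 was 0.34 without WT control 3. No member passed in edgeR (0.00663% of genes) or DESeq2 (0.278%). Ntrk2 was the only member whose groups did not overlap, at 9.07 against 8.63 FPKM, as in 9.28% of genes. After PTX, KO against WT gave no member an unadjusted p under 0.05 (3.55% of genes) or an adjusted one in edgeR (0.0133%) or DESeq2 (0.0663%). Averaged over treatments, KO against WT likewise gave none, against 3.75% unadjusted, 0.0133% in edgeR and 0.186% in DESeq2, and no member's groups were apart, as 0.325% of genes were. The intervals of that average bound the members' differences: for Ntrk2 they ran from -3.53% to 9.91%, for Ret from -5.45% to 13.9% and for Bdnf from -43.1% to 29.7%.

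Labelled sex gave 3 members an unadjusted p under 0.05, with Gfra2 and Ntrk3 higher and Ngfr lower in females, against 8.44% of genes. The count was 5 without WT control 2, with Bdnf and Gfra1 added, both lower in females. The share of all genes with such a p in that refit is not given here, so the larger count is not a result about the members. None passed in edgeR (0.0398% of genes) or DESeq2 (0.815%). Gfra2 was 64.5 FPKM on average in 4 female and 55.9 FPKM in 7 male libraries, a log2 fold change of 0.20 (SE 0.069) with an adjusted p of 0.537 in edgeR. Without WT control 3 it was 0.10 for Gfra2 and 0.079 for Ntrk3. For Gfra2 the exact two-sided permutation test gave p = 0.0273. The female library was replicate 3 in each group, so sex and that number cannot be told apart.

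**Figure D3:**
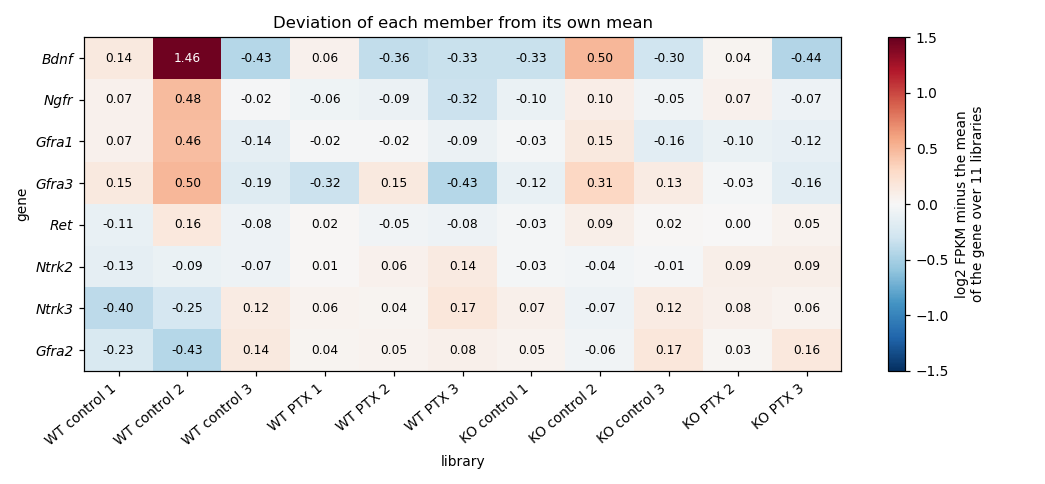
Log2 FPKM of each member (rows) in each library (columns) minus its own mean over 11 libraries, printed in each cell and coloured from blue (below) to red (above). WT control 2 deviates by 1.46 for Bdnf and by 0.46 to 0.50 for Ngfr, Gfra1 and Gfra3, and by -0.43 for Gfra2.

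Across libraries the members formed opposed sets. Bdnf, Ngfr, Gfra1 and Gfra3 varied together, as with Bdnf and Gfra1 (r = 0.95 on log2(FPKM + 1), n = 11 libraries) and Ngfr and Gfra3 (r = 0.82). Ntrk3 and Gfra2 varied together as well (r = 0.87), and Ntrk2 with Ntrk3 (r = 0.71). Members of the first set ran against those of the second, down to r = -0.93 for Gfra1 and Gfra2 and -0.90 for Bdnf and Gfra2. Without WT control 2 these values were 0.80, 0.71, 0.90, 0.66, -0.80 and -0.71 in the same order. The other pairs of the first set were lower without that library. They were 0.65 for Bdnf and Ngfr, 0.51 for Gfra1 and Gfra3, 0.49 for Bdnf and Gfra3 and 0.42 for Ngfr and Gfra1. Over all 11 libraries these pairs had r = 0.89, 0.73, 0.72 and 0.82. Ret went with the first set in all libraries (r = 0.71 with Bdnf), but its r with every other member lay between 0.14 and 0.36 without WT control 2. These are descriptions over libraries that share group, sex and depth.

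**Figure D4:**
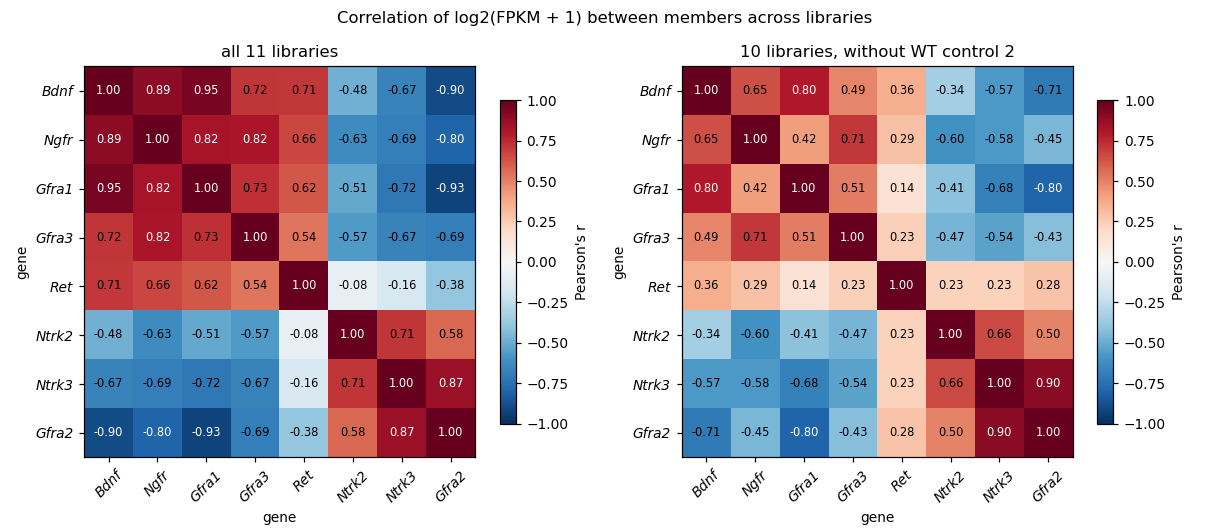
Pearson's r of log2(FPKM + 1) between members over all 11 libraries (left) and over 10 libraries without WT control 2 (right), coloured from blue (-1) to red (1). Bdnf, Ngfr, Gfra1 and Gfra3 are positive with each other and negative with Ntrk2, Ntrk3 and Gfra2 on both sides, with smaller values for most pairs on the right.

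Marker levels of some neuron classes, of SGCs and of macrophages moved with members of these sets. The mean log2 level of the 5 peptidergic nociceptor markers (Calca, Calcb, Tac1, Adcyap1 and Trpv1) had r = 0.89 with Ngfr, 0.84 with Gfra3, 0.83 with Bdnf and 0.79 with Gfra1, and -0.79 with Gfra2. Without WT control 2 the same values were 0.73, 0.73, 0.53, 0.44 and -0.48. Markers of C low-threshold mechanoreceptors had r = 0.85 with Gfra2 and -0.86 with Gfra1, or 0.67 and -0.68 without that library. Markers of Aδ low-threshold mechanoreceptors had r = 0.86 with Ntrk3, 0.83 with Gfra2 and 0.74 with Ntrk2, or 0.83, 0.66 and 0.72 without it. Markers of proprioceptors and Aβ neurons had r = 0.34 with Ntrk3, or -0.03 without WT control 2. Markers of non-peptidergic nociceptors had r = 0.62 with Gfra2 and -0.18 with Ret, or 0.67 and 0.0027 without WT control 2. Markers of SGCs had r = 0.82 with Gfra1, 0.72 with Gfra3 and -0.70 with Gfra2, or 0.76, 0.56 and -0.48 without WT control 2. With Bdnf and Ngfr they had r = 0.67 and 0.61, or 0.40 and 0.28 without that library. Macrophage markers had r = 0.77 with Gfra3, 0.68 with Gfra1, 0.65 with Bdnf and -0.74 with Gfra2. These values were 0.65, 0.44, 0.35 and -0.55 without WT control 2. In WT the summed peptidergic level was 850.4 to 1268 FPKM in controls and 730.1 to 896.8 FPKM after PTX, and the part of these cell types in the differences was not tested.

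Of all genes tested, the ones most like a member across the 11 libraries were named by the highest r. Ntrk3 was most like Dip2c (r = 0.98) and Cntnap2, a neuronal cell adhesion molecule of axons (r = 0.98). Gfra2 was most like Car10 (r = 0.97), Ret most like Cyfip2 (r = 0.93), and Ngfr most like Jup, which encodes plakoglobin (r = 0.96). Bdnf was most like Avpr1a, a vasopressin receptor (r = 0.97), and Sox11, a transcription factor of growing neurons (r = 0.97). Gfra1 was most like Rhoq and Adam8 (r = 0.97 for each) and Gfra3 most like Sh2b2, a Trk adaptor at the low mean level of 0.52 FPKM (r = 0.97). Ntrk2 was most like Gm49883 (r = 0.96) and Ppat, an enzyme of purine synthesis (r = 0.95). Without WT control 2 each of these values was 0.87 or higher. The genes were picked for the highest r among all genes tested, so high values come with the choice. The values without WT control 2 use the same other libraries and are no independent check.

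Other ligands of these receptors were scarce in the ganglia. Neurotrophin 3 (Ntf3) had a mean of 0.386 ± 0.123 FPKM (SD, n = 11). Neurturin (Nrtn) stood at 0.313, persephin (Pspn) at 0.244, Gdnf at 0.105, artemin (Artn) at 0.0455 and neurotrophin 4 (Ntf5) at 0.00909 FPKM on average. Bdnf, at 5.35 FPKM, was above each of these 6, none of which passed the filter. They were not tested.

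Gfra4, the persephin co-receptor, stood at 5.59 FPKM, and Gfral, the receptor of GDF15, at 0.00545 FPKM. The p75NTR partner sortilin (Sort1) stood at 8.12 FPKM and the GDNF receptor NCAM (Ncam1) at 15.7 FPKM. Syt1, a calcium sensor of vesicle release, was at 28.5 FPKM in WT controls and 33.8 FPKM in WT PTX, a log2 fold change of 0.24 (SE 0.072) with an adjusted p of 0.263 in edgeR. Sorcs2 went the other way, at 2.31 FPKM in WT controls and 1.91 FPKM in WT PTX, without overlap, as in 14.2% of genes tested. For PTX in WT, 8 genes of this list of other receptors and co-receptors were tested, among them Syt1, which is not a receptor. Of these, 1 (Syt1) was higher and 2 lower with an unadjusted p under 0.05 in edgeR, against 13.5% of all genes tested.

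No gene of these lists passed the threshold in edgeR or DESeq2 in any of the 8 comparisons. For PTX in WT, 1 of 10 p75NTR partners tested had an unadjusted p under 0.05 in edgeR (lower), as did 10 of 43 adaptors and effectors of Trk and RET (3 higher and 7 lower) and 0 of 12 negative regulators, against 13.5% of all genes tested. The median log2 fold changes were -0.09, 0.00 and -0.04, against -0.01 over all genes tested. For PTX in KO the same counts were 0, 1 and 0, against 4.32% of all genes, and for KO against WT without PTX they were 0, 4 and 0, against 7.54%.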

How the data were processed

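RNA-Seq of 11 mouse DRG libraries was analysed from 1 deposited table. The authors made poly(A) libraries with a stranded kit and, per the labels, used cutadapt, FastQC, HISAT2 and StringTie with mm10; versions and settings are not given in the sources used here. The FPKM values were deposited by the authors scaled for gene length and library size, and the estimated counts were deposited by the authors without normalization. Counts were rounded to whole numbers and treated as estimates. Groups, sex and replicate numbers came from the labels; the titles and descriptions number the KO PTX libraries differently, and the descriptions (2 and 3) were used.

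Genes with a mean of at least 0.5 FPKM (15087) entered 1 edgeR 4.0.16 quasi-likelihood fit (TMM, 4 groups and labelled sex, R 4.3.3), with Benjamini-Hochberg adjustment over all of them and a threshold of 0.05. Intervals are 95% intervals of that fit. FPKM of single genes were compared by exact two-sided permutation tests, which took no account of factors other than the one compared. Alternatives were DESeq2 1.42.0, limma 3.58.1 on log2(FPKM + 1) or log2(FPKM + 0.1), DESeq2 size factors, no filter, no sex term, a replicate block, 2 groups only, males only and each library left out. FPKM rows that share a symbol were summed. Fits were tested on simulated data for PTX in WT only, with the same spread for all genes, no sex effect and no outlying library. These settings are simpler than the data. Protein sequences were not analysed here. Genes named were the members, Gpr37l1, other ligands and receptors (some are not reported here), and the 2 tested genes most like each member (Pearson's r of log2(FPKM + 1)), given by example. Members, lists and tests were chosen with earlier results of these data known. Depth was 52735648 to 80348732 estimated counts per library, and 2 or 3 libraries a group limit the precision. Identifiers of 36532 of 36670 genes were found in GENCODE M21. Python 3.11.15 was used for the rest.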

Additional observations from a re-analysis of the deposited data

How the results depend on the processing

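No alternative called a member in any comparison except DESeq2, which called 1, Ngfr, for PTX in WT. Of 431 refits of the fold changes given in the text, 407 kept their direction and their side of the threshold and 23 changed sign. For PTX in KO, the log2 fold change of Ntrk3 was 0.0025 in DESeq2 and with DESeq2 size factors, 0.023 with no sex term, 0.021 with only the 2 groups compared and 0.056 in males. Ret was -0.0093 with no filter, -0.0032 with no sex term and -0.050 in males. With the replicate block in place of sex, Ngfr was -0.0031 and Ret -0.015 in that comparison, and the block changed no call of a member and no count of genes called. Leaving out each library in turn gave Ntrk3 -0.12 to 0.10, Ret -0.056 to 0.087 and Ngfr -0.031 to 0.093 for PTX in KO. It gave Ret -0.084 to 0.056 for PTX in WT, positive only without WT control 2, Gfra1 -0.15 to 0.095 for KO against WT after PTX, and Bdnf -0.39 to 0.068 averaged over treatments, positive only without WT control 2. Scaled to the longest transcript, Gfra3 lay below Gfra1 (mean log2 ratio -0.16).

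The count of all genes called moved more. In the order PTX in WT, PTX in KO, KO against WT without and after PTX, difference of the PTX effects, PTX averaged and KO averaged, edgeR called 1, 1, 1, 2, 1, 2 and 2 genes and DESeq2 called 309, 29, 42, 10, 12, 125 and 28. For labelled sex the counts were 6 in edgeR, 123 in DESeq2 and 14 with no filter. For PTX in WT, 2 genes were called with no filter, 5 with only the 2 groups compared, and 0 with no sex term, in males and with limma at either pseudocount. With only the 2 groups compared 4 genes were called for the KO PTX effect and 5 for the genotypes compared after PTX. Males alone gave 3, 2, 4, 3, 0 and 4 genes in the same order from PTX in KO on. For PTX averaged, 1 gene was called with no sex term, 3 with no filter, 0 with limma on log2(FPKM + 1) and 1 on log2(FPKM + 0.1). Leaving out each library gave 0 to 30 genes for PTX in WT (30 without WT control 3), 1 to 7 for PTX in KO (7 without KO control 2 or KO PTX 2), 1 to 4 for the genotypes without PTX (4 without KO control 3), 2 to 7 for them after PTX and 1 to 6 for the difference (both highest without KO PTX 2), 1 to 18 for PTX averaged (18 without WT control 2), 2 to 5 for KO averaged (5 without WT control 2 or KO PTX 2) and 5 to 12 for labelled sex (12 without KO control 3). The cause was not tested.

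By the rule that every pair exceed 0.1, replicate numbers were not taken to pair the libraries. Over 15 pairs with the same number the mean correlation of deviations from group means was 0.0797 (-0.164 to 0.253), and 7 pairs were over 0.1, against a mean of -0.0397 and 4 of 30 pairs with different numbers. Deviations cancel out within a group, so these means are tied to each other and the second is no independent reference. Every pair with the same number also shares labelled sex. Leaving out WT control 2 moved the PTX fold changes in WT of 6 members by over 1.5 times, to -0.13 for Bdnf, -0.21 for Ngfr, 0.06 for Ret, -0.03 for Gfra1, 0.12 for Gfra2 and -0.21 for Gfra3.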
